A study of Mus musculus with 2 samples.

Results

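Molecular chaperones and their regulator were examined in DNase I hypersensitivity data of M1 cells, using 10 genes: Hspa1a, Hspa1b, Hspa5, Hspa8, Hspa9, Hsp90aa1, Hsp90ab1, Hspd1, Hspe1 and Hsf1. They were taken by name from a deposited table of 55432 transcripts of 22605 genes, in which 27 rows belong to these genes, and the row with the most windows stands for each gene. Heat shock proteins bind unfolded or unstable proteins and help them fold, assemble or be cleared. HSP70 proteins hold short exposed stretches of a client, HSP90 proteins act late on kinases, receptors and other signaling clients, and the HSP60 and HSP10 chaperonin encloses mitochondrial proteins in a chamber. After heat or another protein-damaging stress, HSF1 forms trimers, binds heat shock elements and drives transcription of the inducible genes. Hspa1a and Hspa1b, the classic inducible HSP70 genes, have no introns, whereas Hspa8, Hspa5, Hspa9, Hsp90ab1, Hspd1 and Hspe1 have introns and are used by unstressed cells. Hsp90aa1, an inducible gene with introns, and Hsf1, the regulator, are described separately.

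M1 is a mouse myeloid leukemia line that grows as progenitors and differentiates toward macrophages when given interleukin-6 (IL-6). DHS-seq was performed on 1 library of untreated M1 cells and on 1 library of M1 cells kept in IL-6 for 4 to 5 days, both from passages 15 to 18. In this assay nuclei are cut lightly with DNase I, which reaches open chromatin first, and the small fragments released are sequenced. Each condition has 1 library of 1 line, so no difference has a replicate check, and none of the measurements is a transcript level.

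The table lists, for the 700-bp windows touched by each coding span, the mean and SD of their reads, from which whole numbers of reads were recovered. Coding spans chosen so as not to overlap held 9102320 reads in the untreated library (7.58 per window) and 8544903 in the IL-6 library (7.12 per window). Each read of the IL-6 library is worth 1.03816 in the table as deposited, and this scaling is kept unless another is named. Intervals in brackets are at the 95% level, hold counting error alone, for this pair of libraries. Myeloid progenitor genes had coding-span signal from the 64.6 percentile (Mpo) to the 95.2 percentile (Cebpa) of all genes in M1 cells. Those of B cell, T cell, hepatocyte and erythroid genes ranged from the 11.1 percentile (Hba-a1) to the 86.2 percentile (Apoa1), and none was at 0. Coding-span signal therefore does not set these cell types apart gene by gene, and it is used here as a measure of chromatin only.

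Hspa1a and Hspa1b lie close together on chromosome 17 of NCBIM37, each as a single exon on the minus strand. Their coding sequences, of 1926 and 1929 bp, were identical at 1919 of 1929 aligned positions (99.5%), with an unbroken identical run of 638 bp. The first 120 coding bases did not differ at any position. The last coding bases are shown because they hold 4 of the few differences, with the differing letters in capitals.
Hspa1a, chr17:35106945-35107061, minus strand: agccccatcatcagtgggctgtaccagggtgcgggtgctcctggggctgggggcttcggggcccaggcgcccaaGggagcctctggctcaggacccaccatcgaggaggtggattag
Hspa1b, chr17:35094024-35094143, minus strand: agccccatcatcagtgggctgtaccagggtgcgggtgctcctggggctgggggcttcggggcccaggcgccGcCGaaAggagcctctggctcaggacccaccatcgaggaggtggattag
Reads that come from the long identical runs fit both genes equally well, so the separate values of Hspa1a and Hspa1b are uncertain.

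The promoters of the pair were also alike, with 216 of 238 aligned bases identical (90.8%) and an identical run of 201 bp. Past that run the printed Hspa1b stretch ends sooner, so most positions that are not identical are Hspa1a bases without a partner. The 90.8% thus understates the likeness where both are printed, and it is not comparable with the share of the coding sequences. The promoters are shown because each holds 1 match to the heat shock element, the site that HSF1 binds, searched as GAANNTTC or TTCNNGAA. Looser forms of the element were not searched, so this is not a count of HSF1 sites. Each also holds 1 CCAAT box, the site of the general factor NF-Y. Capitals mark these matches, and a CCAAT box on the other strand reads ATTGG.
Hspa1a, chr17:35109082-35109319, minus strand: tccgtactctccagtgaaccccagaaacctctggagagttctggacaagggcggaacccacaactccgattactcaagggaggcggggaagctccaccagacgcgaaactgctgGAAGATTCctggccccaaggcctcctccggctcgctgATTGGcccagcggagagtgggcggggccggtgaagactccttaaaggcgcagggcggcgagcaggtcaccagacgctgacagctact
Hspa1b, chr17:35096184-35096433, minus strand: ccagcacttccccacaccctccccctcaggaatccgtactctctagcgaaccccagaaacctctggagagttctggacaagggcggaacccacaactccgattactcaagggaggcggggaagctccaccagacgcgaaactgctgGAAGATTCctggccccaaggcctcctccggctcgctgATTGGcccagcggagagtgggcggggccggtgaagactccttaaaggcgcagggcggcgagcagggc
The match to the heat shock element begins 136 bases before the start site of Hspa1a and 104 bases before that of Hspa1b. The windows of Hspa1b cover all of its printed promoter, and those of Hspa1a cover the part nearest to the start site.

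For comparison, promoters of 3 other members are shown as far as no annotated exon touches them: Hspa5, the endoplasmic reticulum HSP70 also called BiP, Hspa8, the constitutive cytosolic HSP70 also called HSC70, and Hsf1. None of these holds a match to the heat shock element as searched here.
Hspa5, chr2:34627365-34627489, plus strand: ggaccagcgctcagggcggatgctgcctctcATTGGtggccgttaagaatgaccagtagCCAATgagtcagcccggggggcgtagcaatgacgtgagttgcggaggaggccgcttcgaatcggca
Hspa8, chr9:40608817-40609066, plus strand: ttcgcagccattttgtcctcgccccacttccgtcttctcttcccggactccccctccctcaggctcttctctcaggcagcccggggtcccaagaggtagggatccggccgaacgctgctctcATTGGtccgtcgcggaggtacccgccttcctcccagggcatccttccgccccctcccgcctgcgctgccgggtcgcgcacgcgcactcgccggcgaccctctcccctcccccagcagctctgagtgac
Hsf1, chr15:76307700-76307864, plus strand: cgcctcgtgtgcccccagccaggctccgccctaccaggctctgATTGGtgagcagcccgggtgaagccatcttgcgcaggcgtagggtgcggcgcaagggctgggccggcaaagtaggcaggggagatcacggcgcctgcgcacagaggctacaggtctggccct
The printed Hspa5 promoter lies just upstream of the gene's first window, whereas the Hspa8 promoter lies well away from its windows. The windows of Hsf1 cover its printed promoter except for the first base.

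Heat shock elements were searched on both strands, as GAANNTTC or TTCNNGAA, in the 250 bases before the start site of each gene. A match was found in 12.04% of 22587 promoters and in 5 of the 10 members, namely Hspa1a, Hspa1b, Hspa9, Hspd1 and Hspe1. Hspd1 and Hspe1, which encode HSP60 and its lid HSP10, are transcribed away from each other from start sites at 55144868 and 55144976 on chromosome 1. Their 250-base stretches overlap, and the 3 matches found for each gene are the same bases read from both sides. The 5 members without a match were Hspa5, Hspa8, Hsp90aa1, Hsp90ab1 and Hsf1. CCAAT boxes (CCAAT) were present in 34.8% of all promoters and in 7 members, with 4 in Hspa5 and 1 each in Hspa1a, Hspa1b, Hspa8, Hsp90ab1, Hspd1 and Hsf1. GC boxes (GGGCGG), the site of the SP1 family, were present in 40.6% of all promoters and in all 10 members. TATA boxes (TATAAA), the binding site of the TATA-binding protein, were present in 12.4% of all promoters and in 0 members. Matches of these motifs can share bases, and a match is a description of letters, not of binding.

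In untreated M1 cells the 10 genes differed in mean signal per window by more than an order of magnitude. Hspa5, the endoplasmic reticulum HSP70, was highest at 92.7 reads per window [85.1 to 100.7], with an SD between its 6 windows of 188. Hspe1, the HSP10 gene, had 77.6 reads per window [70.1 to 85.7] over 5 windows (SD between windows 140). They stood at the 98.2 and 97.8 percentiles of all genes, whose median was 7.75 reads per window. Hsf1 had 33.0 reads per window [31.1 to 35.0] over 34 windows. It lies on chromosome 15, whose genes had a median of 14.6 reads per window, so its level stands on a higher base than that of the other members.

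The remaining members lay between 3.5 and 17.3 reads per window. Hsp90ab1, the constitutive cytosolic HSP90, had 17.3 [14.3 to 20.7] reads per window over 7 windows. Hspa9, the mitochondrial HSP70, had 10.8 [9.52 to 12.2] over 24 windows, and Hspa8 had 8.80 [6.39 to 11.8] over 5 windows. Hspd1, the HSP60 gene, had 7.31 [5.91 to 8.93] over 13 windows, and Hsp90aa1 had 6.43 [4.69 to 8.60] over 7 windows. Hspa1b had 4.50 [2.67 to 7.11] and Hspa1a 3.50 [1.91 to 5.87] reads per window, each over 4 windows. From Hspa5 down to Hspa9 each gene exceeded the next by more than counting error, while no neighbors from Hspa9 down to Hspa1a could be separated.

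**Figure D1:**
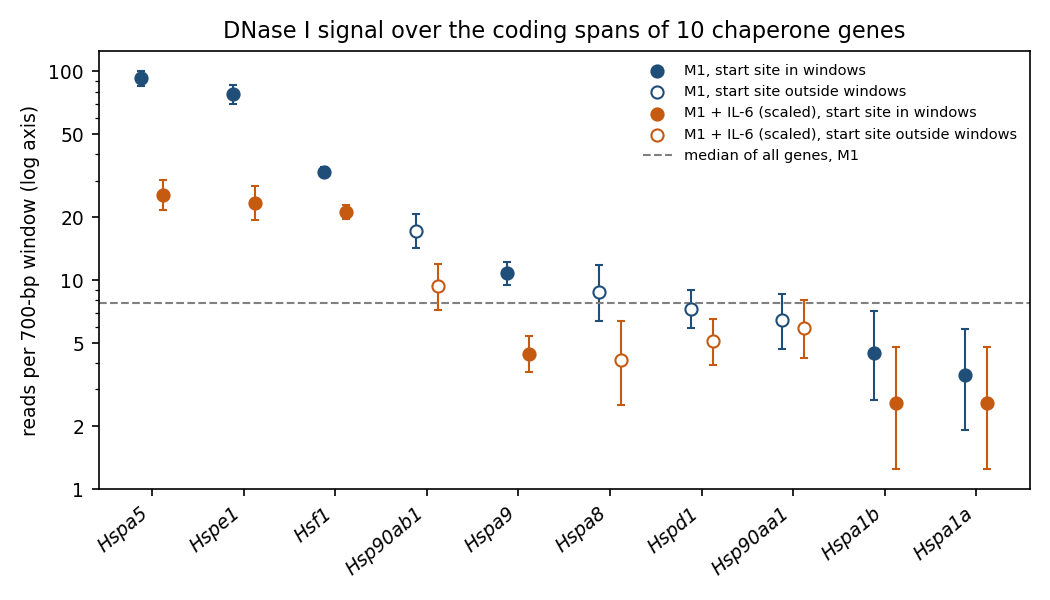
Mean signal of the 10 genes in reads per 700-bp window (log axis) in M1 cells (blue) and IL-6-treated M1 cells (orange, scaled as deposited), with 95% Poisson intervals. Filled points mark genes whose transcription start site lies in the windows, and the 3 highest genes, Hspa5, Hspe1 and Hsf1, are all among them, while the dashed line marks the median of all genes in M1 cells, 7.75.

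The windows follow the coding span, so they hold the transcription start site of some genes and not of others. The start site lay in the windows of Hspa1a, Hspa1b, Hspa5, Hspa9, Hspe1 and Hsf1. The windows of Hspa9 run from 35097301 to 35114100 on chromosome 18, those of Hsp90aa1 from 111929301 to 111934200 on chromosome 12, those of Hsp90ab1 from 45704401 to 45709300 on chromosome 17 and those of Hspd1 from 55134801 to 55143900 on chromosome 1. The start site lay 405 bp outside for Hsp90aa1, 734 bp outside for Hspa8, 920 bp outside for Hsp90ab1 and 968 bp outside for Hspd1. Of the shorter listed transcripts of these genes, 1 (Hsp90aa1-003) starts inside the windows. The promoter signal of Hspa8, Hsp90ab1 and Hspd1 was therefore not measured in their own rows. The windows of Hspe1, from 55144601 to 55148100 on chromosome 1, hold the start sites of both Hspe1 and Hspd1, and which of the pair its signal belongs to cannot be told apart. The windows of Hspa1a are also those of Gm20481, an overlapping predicted gene, which has the same values.

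In reads per window, the intronless pair was the lowest of the set in both libraries. Hspa1a had 14 reads before and 10 reads after IL-6, and Hspa1b had 18 and 10. With the values of both genes summed, M1 cells had 4.00 reads per window over 8 windows of the pair, against 24.4 reads per window over 60 windows of the 6 constitutive genes. This is a fold of 0.164 [0.112 to 0.233], or 0.285 when the medians of the genes are compared. Hspa1a was at the 20.97 percentile and Hspa1b at the 27.97 percentile of all genes in M1 cells. The genes nearest to Hspa1b in the levels of both libraries, among 3584 genes of like size, were Vmn1r233, a vomeronasal receptor gene, and E130012A19Rik, and the nearest to Hspa1a after Gm20481 was the vomeronasal receptor gene Vmn1r19. Euclidean distances to these 3 genes were 0.0948, 0.117 and 0.0867 on the log2 scale of reads per window.

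The low values of the pair went together with a low share of unique sequence. Of the positions in its windows, 28.2% for Hspa1a and 25.9% for Hspa1b began a 32-bp sequence found once on both strands of NCBIM37. The share was 49.6% for Hspa8, 56.2% for Hsp90aa1 and 81.4% for Hspd1, and from 87.5% (Hspe1) to 96.9% (Hspa5) for the other 5. With sequences of 50 bp it was 33.6% for Hspa1a and 33.3% for Hspa1b. From the 5′ end, the windows of Hspa1a had 16.9%, 4.57%, 12% and 79.3% unique positions, and those of Hspa1b had 45.9%, 4.57%, 18.3% and 34.7%. The second window of both genes was thus almost without unique sequence.

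**Figure D2:**
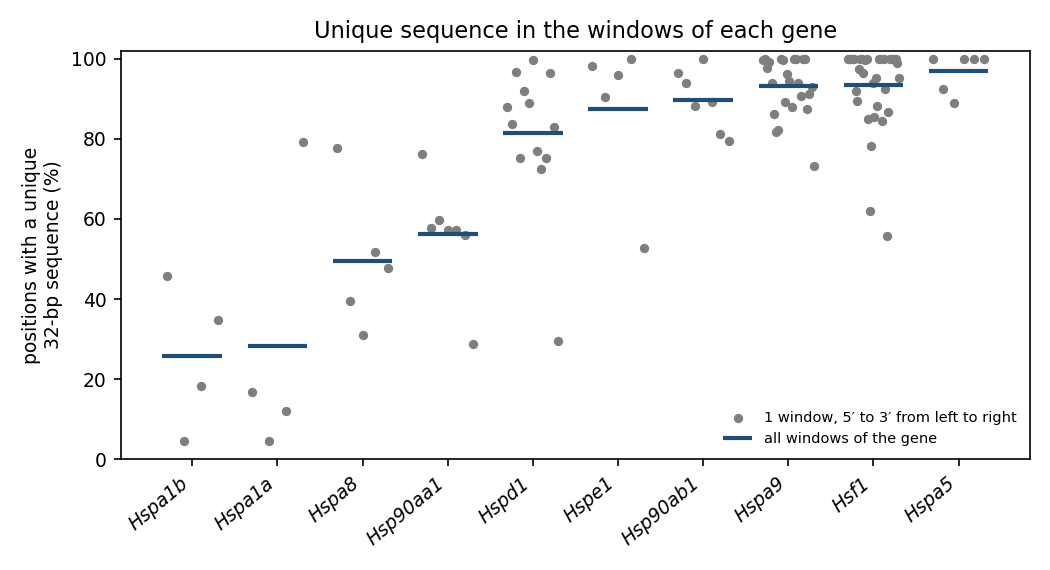
Share of positions (%) that begin a 32-bp sequence found once in the genome, for each window of each gene (grey points, from 5′ to 3′) and for all its windows (blue line). The intronless genes Hspa1b and Hspa1a are lowest at 25.9% and 28.2%, and Hspa5 is highest at 96.9%.

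Per 700 unique positions, M1 cells had 14.8 reads for the intronless pair and 28.2 reads for the constitutive genes, a fold of 0.525 [0.358 to 0.745]. Against Hspa8, Hsp90ab1 and Hspd1, the constitutive genes whose start site is outside the windows, the fold was 0.385 [0.258 to 0.557] per window and 1.10 [0.738 to 1.59] per 700 unique positions. Against Hspa5, Hspa9 and Hspe1, whose start site is inside, it was 0.116 [0.0792 to 0.165] per window and 0.401 [0.273 to 0.569] per 700 unique positions. In these sums the pair was lower than the start-site genes on both measures, and it could not be separated from the other constitutive genes per unique position. The sum of the start-site genes rested mostly on Hspa5 and Hspe1, with 95.6 and 88.7 reads per 700 unique positions in M1 cells. On this measure Hspa9 had 11.6 and Hspd1 8.98, both below the 14.8 of the pair, so the pair was not the lowest. Hspa1l, the adjacent testis HSP70 gene, whose coding sequence was 83.3% identical to that of Hspa1a and whose windows were 81.3% unique, had 41 reads before and 45 after IL-6 over 4 windows, and it was chosen for this comparison after its values were seen. The number of reads that were discarded or placed at random between copies is not given in the sources used here, and its part in these levels was not tested.

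After IL-6, all 10 genes had lower scaled signal than in untreated cells, with a median log2 ratio of -0.82, against 0.05 over all genes, of which 44.2% were lower. The intervals of Hspa1a, Hspa1b and Hsp90aa1 held 1. Hspa1a and Hspa1b did not exceed 21 reads in either library. The methods use this number for a single hypersensitive site, whereas here it filters the reads of all windows of a gene together. A gene that passes need not hold such a site: the strongest window of Hspa8 held 17 reads in M1 cells, and that of Hspd1 15 to 19. Of the 8 members that exceeded 21 reads, Hspa8 through the untreated library alone, 4 were at least 2-fold lower (Hspa5, Hspe1, Hspa9 and Hspa8), and 13.4% of 18473 genes were. None of the 8 was at least 2-fold higher, as 1.71% of genes were. The interval of the ratio was below 1 in 7 of the 8, all but Hsp90aa1, and in 34.4% of genes, and it was above 1 in 0 of the 8 and in 29.0% of genes. Among 9346 tested genes of 4 to 34 windows, the sizes of the members, 18.9% were at least 2-fold lower, with a median log2 ratio of -0.08. Signal was not matched: in M1 cells these genes had a median of 11.3 reads per window, and the 8 members 14.0.

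The direction of these changes depended on the scaling between the libraries. Scaling by the median of ratios over 544 strong single windows moved every log2 ratio up by 1.83. At least 2-fold higher were then 5 of the 10 members, Hsf1, Hsp90aa1, Hspa1a, Hspa1b and Hspd1, beside 84.8% of genes. At least 2-fold lower were 0 of the 10 members, beside 0.0767% of genes. Differences between genes do not depend on a common scaling: the median of the members minus that of all genes was -0.88 in log2 units, whichever factor was used. From here on, a ratio is given in the scaling of the table, and its percentile is among the 18473 genes tested.

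**Figure D3:**
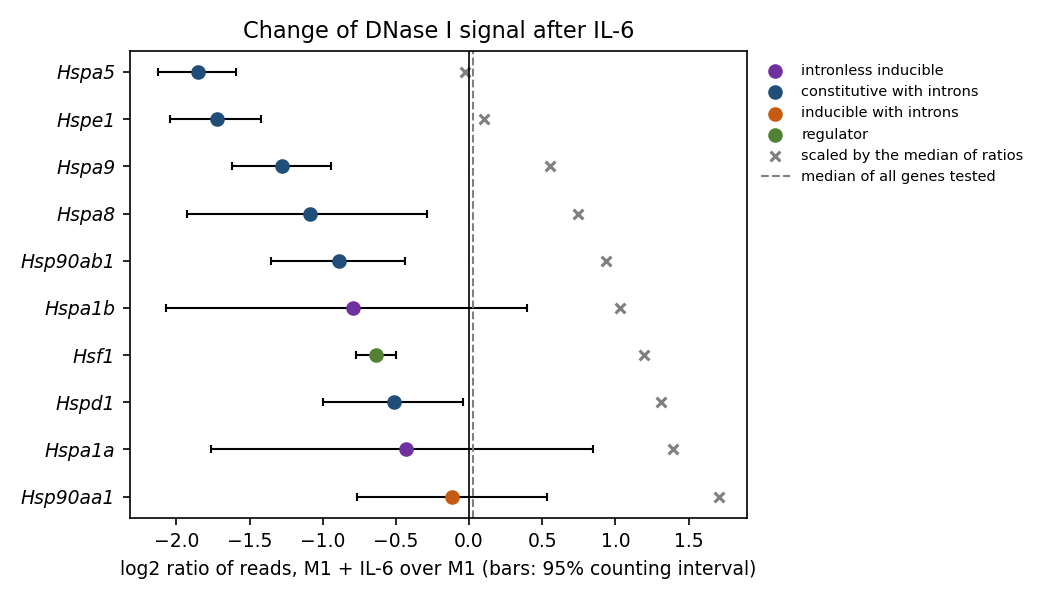
Log2 ratio of reads, IL-6-treated over untreated M1 cells, without added reads and scaled as deposited, with 95% Clopper-Pearson intervals. Circles are colored by class, grey crosses give the same genes scaled by the median of ratios, which moves them up by 1.83, and the dashed line is the median of all genes tested, 0.03.

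Of the organelle chaperones, Hspa5 had the lowest ratio. It had 556 reads in M1 cells and 148 reads after IL-6, a ratio of 0.276 [0.229 to 0.332], at the 2.44 percentile of tested genes. Hspe1 had 388 and 113 reads, a ratio of 0.302 [0.243 to 0.374], at the 3.58 percentile. Hspa9, the mitochondrial HSP70, had 259 and 103 reads over its 24 windows, a ratio of 0.413 [0.325 to 0.521], at the 8.95 percentile. Hspd1 had 95 and 64 reads, a ratio of 0.699 [0.501 to 0.970], at the 25.4 percentile. The chaperonin partners thus differed in ratio without overlap of their intervals, but the windows of Hspe1 contain the start sites of both and those of Hspd1 contain neither. The percentiles are among genes of all signal levels, and genes of like signal were not compared. In the same scaling, the 544 strong single windows used for the median of ratios were lower by a median of 1.83 log2 units. The log2 ratios of Hspa5 and Hspe1, -1.85 and -1.72, lay close to that.

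Of the cytosolic constitutive chaperones, Hspa8 had 44 reads in M1 cells and 20 after IL-6, a ratio of 0.472 [0.263 to 0.818]. The genes with levels nearest to Hspa8 in both libraries, among 2622 genes of like size, were Il2rg, the common gamma chain of cytokine receptors, with 52 and 22 reads, and Rpl30, a ribosomal protein gene, with 38 and 19. Hsp90ab1 had 121 and 63 reads, a ratio of 0.541 [0.392 to 0.739]. Its inducible paralog Hsp90aa1 had 45 and 40 reads, a ratio of 0.923 [0.587 to 1.45], the highest of the 10 and the only one of the 8 with more than 21 reads whose interval held 1. Hsf1 had 1121 reads in M1 cells and 696 after IL-6, a ratio of 0.645 [0.586 to 0.709], at the 21.8 percentile. The intronless genes had ratios of 0.742 [0.295 to 1.80] for Hspa1a and 0.577 [0.238 to 1.32] for Hspa1b, so a change of either was not detectable at this depth.

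After IL-6 the order of the levels was flatter. Hspa5 had 25.6 reads per window [21.6 to 30.1], Hspe1 23.5 [19.3 to 28.2] and Hsf1 21.3 [19.7 to 22.9]. Hspe1 could not be separated from either of the others, and Hspa5 exceeded Hsf1 by a ratio of 1.20 [1.002 to 1.44], compared with 2.81 [2.53 to 3.11] in M1 cells. Hsp90ab1 followed with 9.34 [7.18 to 11.95] and Hsp90aa1 with 5.93 [4.24 to 8.08]. No neighbors from Hsp90aa1 down could be separated, as far as Hspa1a and Hspa1b with 2.60 [1.24 to 4.77] reads per window each.

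The SD between windows bounds how many reads the strongest window of a gene can hold. In Hspa5 the strongest window held 472 to 476 of the 556 reads in M1 cells, 84.9 to 85.6%. After IL-6 it held 109 to 113 of 148 reads, 73.6 to 76.4%. The strongest window of Hspe1 held 325 to 327 of 388 reads (83.8 to 84.3%) in M1 cells and 79 to 82 of 113 reads (69.9 to 72.6%) after IL-6. In both genes a single window carried most of the signal in each library, and the table does not say which window it is, nor whether it is the same in both.

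The ratio was uneven within these genes. The strongest window of Hspa5 had a ratio of 0.238 to 0.249, and its other 5 windows together 0.433 to 0.506. In Hspe1 the strongest window had a ratio of 0.251 to 0.262 and the other 4 windows 0.511 to 0.579. At the allowed values that differ least, the ratio of the strongest window over that of the rest was 0.575 [0.362 to 0.926] in Hspa5 and 0.513 [0.306 to 0.873] in Hspe1, where the strongest window is picked by its own reads in each library. In Hsf1 the strongest window held between 324 and 569 of the 1121 reads in M1 cells and between 41 and 133 of the 696 reads after IL-6. The other 33 windows of Hsf1 held 552 to 797 reads in M1 cells and 563 to 655 after IL-6, a ratio of 0.733 to 1.23. The strongest window of Hsf1 was thus lower at any allowed value, whereas the direction of the rest could not be determined. Its ratio over that of the rest was 0.581 [0.458 to 0.734] at the least different values. In Hspa9 the strongest window held 83 to 140 of 259 reads in M1 cells and 13 to 31 of 103 reads after IL-6, with a ratio over that of the rest of 0.913 [0.536 to 1.54] at the least different values.

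In Hsp90ab1 and Hspd1 signal was spread out. The strongest of 7 windows of Hsp90ab1 held 25 of 121 reads (20.7%) in M1 cells and 15 of 63 (23.8%) after IL-6. In Hspd1 it held 15 to 19 of 95 reads and 8 to 9 of 64. Hspa8 had 17 of 44 and 7 of 20 reads in its strongest window. The intronless genes rested on few reads: in M1 cells 12 of the 14 reads of Hspa1a fell in a single window, with 2 in another and 0 in the remaining pair, and 10 to 11 of the 18 reads of Hspa1b in 1 window. The SD divided by the mean was lower after IL-6 in 7 of the 8 members with more than 21 reads, all but Hspa8, and in 82.9% of genes, so this flattening was shared with most genes.

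**Figure D4:**
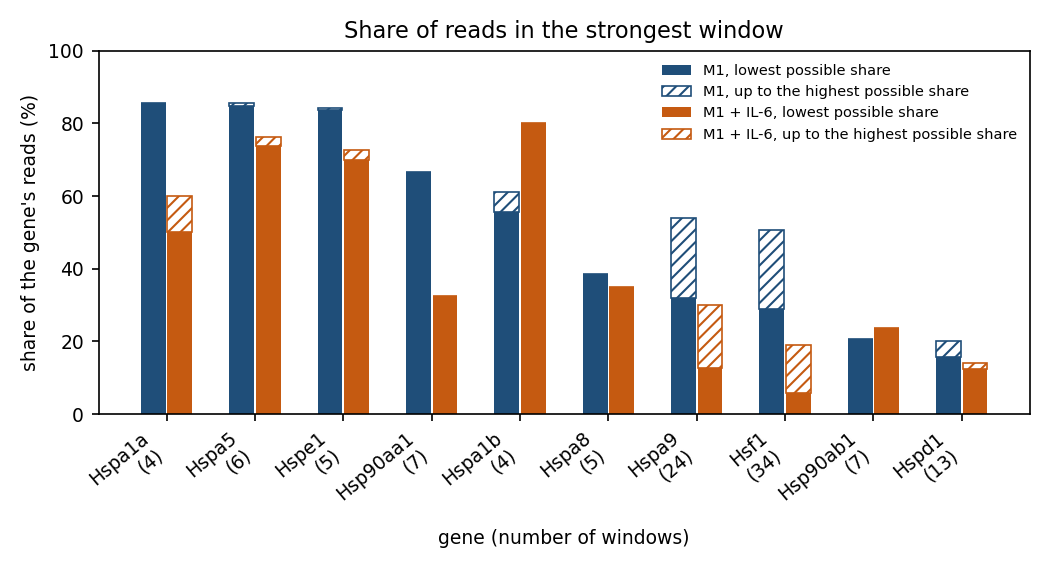
Share (%) of a gene's reads in its strongest window in M1 cells (blue) and IL-6-treated M1 cells (orange), with the number of windows under each gene. Solid bars reach the lowest share that the deposited mean and SD allow and hatched bars the highest, and Hspa5 goes from 84.9 to 85.6% in M1 cells to 73.6 to 76.4% after IL-6.

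Genes with several listed transcripts could be divided further. The first 2 windows of Hspa8 at its 5′ end held 17 and 9 reads in M1 cells and 6 and 3 reads after IL-6, in an order that the table does not give. Their ratio was 0.359 [0.148 to 0.791], and that of the other 3 windows, with 18 and 11 reads, was 0.634 [0.271 to 1.42]. In Hsp90aa1 the first 2 windows held 33 reads in M1 cells, 30 of them in 1 window, and 19 reads after IL-6. The other 5 windows held 12 and 21 reads, a ratio of 1.82 [0.854 to 4.05]. The ratio of the first 2 windows was 0.598 [0.321 to 1.08], so the intervals of both stretches held 1. The strongest window of Hsp90aa1 went from 30 to 13 reads and its other windows from 15 to 27, and the ratio of the strongest window over that of the rest was 0.241 [0.0878 to 0.651], again with that window picked by its own reads.

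In Hsp90ab1 the 5′ end was the quiet part. Its first 2 windows held 13 reads in each library, the next 2 held 46 and 22 (0.497 [0.284 to 0.842]), the following window 15 and 9, and the last 2 held 47 and 19 (0.420 [0.233 to 0.729]). In Hspd1 the first 4 windows held 35 and 18 reads, a ratio of 0.534 [0.285 to 0.969], the next 2 held 22 and 13, and the last 7 held 38 and 33, a ratio of 0.902 [0.548 to 1.48]. The lowest ratio therefore lay at the 5′ end in Hspa8, Hsp90aa1 and Hspd1 and at the 3′ end in Hsp90ab1, with intervals that overlapped between the stretches of each gene.

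The intronless and constitutive genes were then compared in their response. The pair together had 32 reads in M1 cells and 20 after IL-6, a ratio of 0.649, and the 6 constitutive genes had 1463 and 511, a ratio of 0.363. The ratio of these ratios, in which the scaling cancels, was 1.80 [0.960 to 3.26], so a difference was not detectable at this depth. Against Hspa5, Hspa9 and Hspe1, whose start site is in the windows as it is in those of the pair, it was 2.08 [1.10 to 3.77]. Against Hspa8, Hsp90ab1 and Hspd1 it was 1.11 [0.577 to 2.08]. It was 1.97 [1.035 to 3.59] without the mitochondrial chaperones, and 1.99 [1.06 to 3.61] with the shortest transcript of each gene. The interval thus excluded 1 or held it depending on which constitutive genes or transcripts were used. These comparisons sum reads, so genes with many reads weigh most. Hspa5 and Hspe1 held 556 and 388 of the 1463 constitutive reads in M1 cells, and Hspa5 held 556 of 721 without the mitochondrial chaperones. From the mean of the genes' log2 ratios the difference was 0.63 in log2 units, compared with 0.85 from summed reads.

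The other genes of the pathway were taken from a list of 75 chaperones, co-chaperones and heat shock factors, of which 72 had more than 21 reads in either library. Their median log2 ratio was -0.53, with 58 lower and 14 higher than in M1 cells, 21 lower by 2-fold or more and 0 higher by as much. Hspb1, Hspb3 and Dnajb9 stayed at or under 21 reads. Over all tested genes the median was 0.03 and 48.3% were lower, 13.4% by 2-fold or more, while 1.71% were higher by as much. Where the start site was in the windows, 19 of 40 listed genes were at least 2-fold lower, compared with 19.1% of all such genes. Where it was outside, 2 of 32 were, compared with 6.43%. These sets were not matched for signal. In M1 cells the 40 genes had a median of 18.9 reads per window, and all genes with the start site in the windows 10.6. For the 32 genes it was 11.6, compared with 8.23. Whether the shares differ at like signal was not tested.

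Endoplasmic reticulum folding genes, which work with BiP, had a median log2 ratio of -1.60, and 5 of 8 were at least 2-fold lower. The lowest of them was Sdf2l1, a partner of BiP, with 359 reads in M1 cells and 79 after IL-6 over 3 windows, a log2 ratio of -2.12. Hsp90b1, the endoplasmic reticulum HSP90, had 1053 and 270 reads, a log2 ratio of -1.91. The TRiC chaperonin, which folds actin and tubulin, had 8 of 8 subunit genes lower (median -0.88), 2 of them at least 2-fold. Tcp1, its founding subunit, had 962 and 202 reads, a log2 ratio of -2.19, the lowest of the list. HSP90 co-chaperone genes were lower in 7 of 7 (median -0.86, 3 at least 2-fold), and exchange factors and adaptors of HSP70 in 10 of 12 (median -0.73, 5 at least 2-fold). Every gene counted in these groups as at least 2-fold lower has its start site in the windows. Over all genes with the start site there the share was 19.1%, and over all tested genes 13.4%. The groups were not matched in start site or signal, so their medians are not compared as traits of each group.

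J-domain genes, which deliver clients to HSP70, were lower in 9 of 14 (median -0.45), and other HSP70 and HSP110 genes in 8 of 10 (median -0.26). The mitochondrial protease genes Clpp and Lonp1 were both lower, with a median of -1.22. Small heat shock protein genes, which hold unfolded proteins without ATP, were lower in 2 of 6, with a median of 0.12. The highest log2 ratios among listed genes with at least 100 reads were those of Hsf4 (0.79, from 92 to 154 reads), a heat shock factor of the lens, Hspb7 (0.56, from 88 to 125 reads), a small heat shock protein of heart muscle, and Sil1 (0.44, from 1321 to 1724 reads), an exchange factor for BiP. Uniqueness of the listed genes had a median of 96.0%, and 1 gene, the TRiC subunit Cct6a, named because it was the only one under 50%, was at 28.9% unique with 510 and 139 reads. The list was written with earlier results of these data known, and these counts describe it beside all genes without a test.

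**Figure D5:**
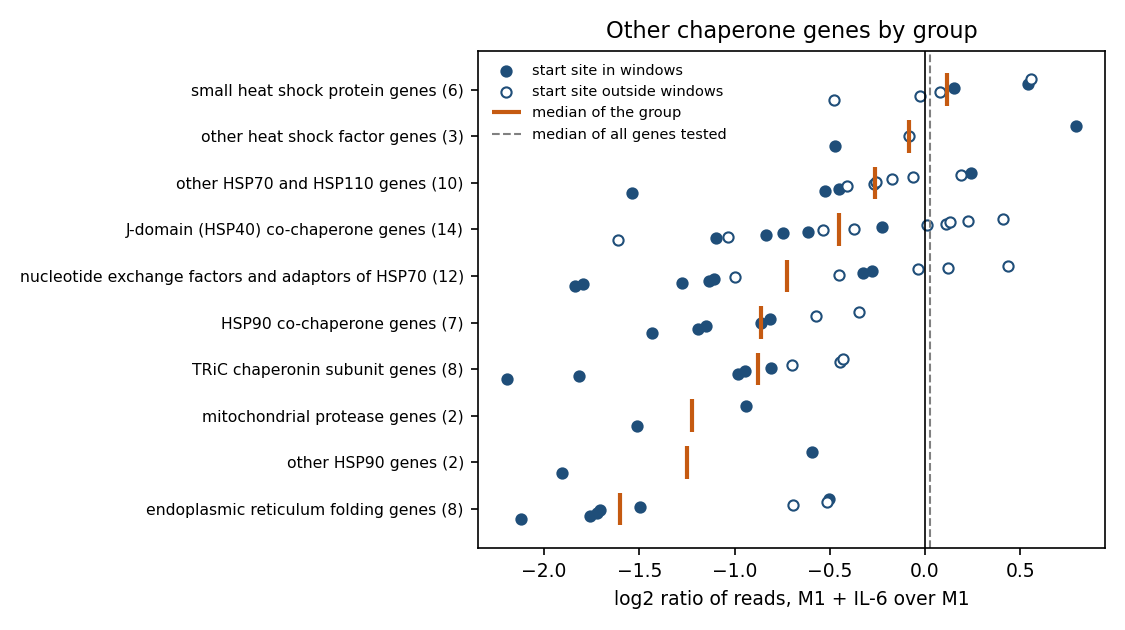
Log2 ratio of reads, IL-6-treated over untreated M1 cells, for 72 other chaperone genes by group, with the number of genes in each group in brackets. Filled points are genes with the start site in the windows, orange bars are group medians, from -1.60 for the endoplasmic reticulum folding genes to 0.12 for the small heat shock protein genes, and the dashed line is the median of all genes tested.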

How the data were processed

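DHS-seq libraries of untreated and IL-6-treated M1 cells, 1 each, were analyzed. The authors trimmed the reads, aligned them to NCBIM37 (mm9) with BWA, whose version is not given in the sources used here, and used Seqmonk. The read length and the placement of reads that match several positions are not given either. Per transcript, the deposited signal is a mean and an SD over 700-bp windows, and the deposited number of windows is a count. The window size gave the listed number in 100% of rows, and reads recovered from the means were whole within 0.05. Whole reads of sub-stretches came from transcripts with shared boundaries. In 0 cases did sums by different routes disagree.

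The members and the wider list were chosen with earlier results of these data known. Named genes are the members, genes sharing their windows, the 3 lowest and 3 highest log2 ratios of the wider list with at least 100 reads, the 2 genes nearest in level to Hspa1a, Hspa1b and Hspa8, and markers. Hspa1l, Cct6a, Clpp, Lonp1, Hspb1, Hspb3 and Dnajb9 fall outside this rule and were named after their values were seen. The log2 ratio adds 0.5 reads. Ratios have 95% Clopper-Pearson intervals and levels Poisson intervals. No p-value is given, since each condition has 1 library. Start sites, exons and sequences came from NCBIM37 with GENCODE M1. Alternatives covered the scaling, the reads added, the transcript, the filter, the fold and the genes compared. The recovery of reads and the intervals were tested on simulated data. Spi1 had no row under that name, and DNase I signal outside the windows, such as that at the Hspa8 promoter, is not analyzed here. Computations ran in Python 3.11.15 (numba 0.67.0, edlib 1.3.9.post1, numpy 2.4.6, scipy 1.17.1, pandas 2.3.3, matplotlib 3.10.9).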

Additional observations from a re-analysis of the deposited data

How the results depend on the processing

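No paired analysis was possible because only 1 library was made per condition, which also leaves no replicate to drop. Of 88 values recomputed for 15 results, 22 changed sign. Another 7 kept their sign but were classed as moved, and the remaining 59 kept their sign and were not. Some of the 59 had little or no room to change. No scaling and the total over coding spans shift log2 ratios by only -0.05 and 0.04. For Hspa1a, Hspa1b, Hspa5, Hspa9, Hspe1 and Hsf1 the transcript with fewest windows gave the main value. Of the 22, 6 belong to Hspa1a, Hspa1b and Hsp90aa1, whose intervals held 1 in the scaling of the table. The scaling made nearly all of these changes. Under the median of ratios the log2 ratios were 0.76 for Hspa8, 0.55 for Hspa9, 0.94 for Hsp90ab1, 1.31 for Hspd1, 0.10 for Hspe1, 1.19 for Hsf1, 1.41 for Hspa1a, 1.06 for Hspa1b and 1.71 for Hsp90aa1, with medians of 1.00 for the members and 1.30 for the wider list. Under the trimmed mean of log ratios they were 0.62 for Hspa8, 0.41 for Hspa9, 0.80 for Hsp90ab1, 1.17 for Hspd1, 1.05 for Hsf1, 1.27 for Hspa1a, 0.92 for Hspa1b and 1.57 for Hsp90aa1, with medians of 0.86 for the members and 1.16 for the wider list. Hspa5 kept its sign but moved to -0.03 under the median of ratios and to -0.17 under the trimmed mean. Hspe1 moved to -0.04 under the trimmed mean. Under both scalings, 0 members were at least 2-fold lower. These factors come from 544 single windows with strong signal in both libraries, and which scaling holds was not tested. With the transcript of fewest windows Hsp90ab1 was at 0.054, since its 2 windows had 13 reads in each library. The level of the intronless pair in M1 cells, 0.164 of that of the constitutive genes per window, was 0.285 from medians and 0.525 per 700 unique positions, an alternative added after the data were seen, as were the start-site comparison and the members without the pair. Depth limits Hspa1a and Hspa1b most, with 10 to 18 reads per library.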
